A study of Saccharomyces cerevisiae with 24 samples.

Results

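ECM33, BIG1, GPI15 and PMI40 are intron-containing genes of Saccharomyces cerevisiae whose products build the cell wall or feed protein glycosylation. They were taken by their open reading frame names: YBR078W (ECM33, chromosome II), YHR101C (BIG1, chromosome VIII), YNL038W (GPI15, chromosome XIV) and YER003C (PMI40, chromosome V). They are 4 of the 5674 nuclear genes used, and all 4 had a value in each of the 24 columns. Among these genes, 230 are on a list of intron genes, 89 of them for ribosomal proteins, and 137 are neither a ribosomal protein gene nor one of these 4. The remaining 5444 carry no listed intron and are called intronless below. They were taken by name, with no measured value in the rule.

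ChIP-chip, in which immunoprecipitated chromatin is read out on a microarray, recorded how strongly splicing proteins, the elongation factor Spt5 and RNA polymerase II were found over each open reading frame. The splicing factors and Spt5 carried a myc or HA epitope at the C terminus, per the series design, and the RNA polymerase II label names no tag. A value is a log2 ratio that is likely immunoprecipitate over whole-cell extract, and it can show neither where along a gene a factor sat nor whether it sat on the intron. The 7 mutant or treated columns were as follows. Prp40-3myc was profiled in the spt5_194 mutant and in cells given 80 ug/ml of 6-azauracil (6AU), an inhibitor of transcription elongation, for 30 min, with 1 untreated Prp40-3myc control for both, and all of these grew in medium lacking uracil. Prp40-9myc was profiled in a strain lacking the cap-binding complex, whose deleted gene the sources used here do not give, with the Prp40-9myc profile as its control. Prp40-9myc and Mud2-13myc were each profiled with RNase treatment, against columns without RNase that shared the shortened fixation. Lea1-13myc and Brr2-13myc were each profiled in sub2-85, a temperature-sensitive mutant of the RNA helicase Sub2, against SUB2 wild type, and both genotypes were shifted to 37C for 30 min in medium lacking histidine. The 12 profiles of unperturbed cells covered Prp40-9myc, BBP-3HA, Mud2-13myc, Lea1-13myc, Prp11-13myc, Prp5-9myc, Brr2-13myc, Prp19-9myc, Prp2-13myc, Sub2-3HA, Spt5-9myc and RNA polymerase II, from cells grown vegetatively in rich medium where the labels give a medium, which they do not for BBP.

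Introns are removed by the spliceosome, which assembles on the RNA in steps that can begin while the gene is still being transcribed. Prp40 belongs to the U1 particle that meets the start of the intron, and BBP and Mud2 recognise its branch point region. Lea1 and Prp11 belong to the U2 particle, Prp5 is an ATPase that helps U2 to bind, and Brr2, Prp19 and Prp2 act later, in the activation of the assembled spliceosome. The products of the 4 genes act along a common route to the cell surface. Pmi40 is the mannose phosphate isomerase that makes the mannose precursor for glycosylation, and Gpi15 is a subunit of the enzyme complex that starts the glycosylphosphatidylinositol (GPI) anchor. Big1 is a membrane protein of the endoplasmic reticulum needed for normal amounts of wall glucan, and Ecm33 is itself a GPI-anchored glycoprotein of the plasma membrane and wall.

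Each column had already combined its biological replicates (2 to 6 of them), so there was no spread between replicates, no test could be made and no p-value is given. Few arrays stand behind each value, which limits its precision. A value of 1 or more, a 2-fold ratio, was counted as a call, and each gene was also placed by its percentile among the intronless genes of the same column. Column medians over all probes lay between -0.17 and 0.05, and robust SDs over intronless genes between 0.09 and 0.64. Values stopped at 6.64 in size, a 100-fold ratio, in 18 of the 24 columns. Although the labels state the dyes, 3 pairs of columns ran against each other over all probes, with a Pearson correlation below -0.3. They were the Mud2 profile with 6AU (-0.342), the RNase-treated Mud2 column with spt5_194 (-0.357), and the same Mud2 column with wild-type SUB2 Lea1 (-0.325). By Spearman's rho, which uses ranks, these pairs had -0.4, 0.0465 and 0.0388, so only Mud2 with 6AU was negative by rank. As deposited, the ribosomal protein intron genes had medians of 2.26 in the Mud2 profile, 0.55 in spt5_194 and 0.74 in wild-type SUB2 Lea1. Their medians were -0.04 with 6AU and 0.01 in the RNase-treated Mud2 column. On the Pearson correlations, the direction of these 5 columns was taken as not settled. The comparisons that use them are also given with the sign turned.

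The 4 genes differed widely from each other. ECM33 stood at or above 1 in 13 of 24 columns and in 8 of 12 profiles, PMI40 in 4 columns and 1 profile, BIG1 in 3 columns and no profile, and GPI15 in 1 column, which was a profile. With the 5 unsettled columns turned, these counts of columns were 12 for ECM33, 4 for PMI40, 4 for BIG1 and 0 for GPI15. As deposited, BIG1 was also at or below -1 in 3 columns and GPI15 in 1. ECM33 passed the 95th percentile of intronless genes in 17 columns, PMI40 in 9, BIG1 in 5 and GPI15 in 2. With the columns turned these numbers became 15, 8, 6 and 3.

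**Figure D1:**
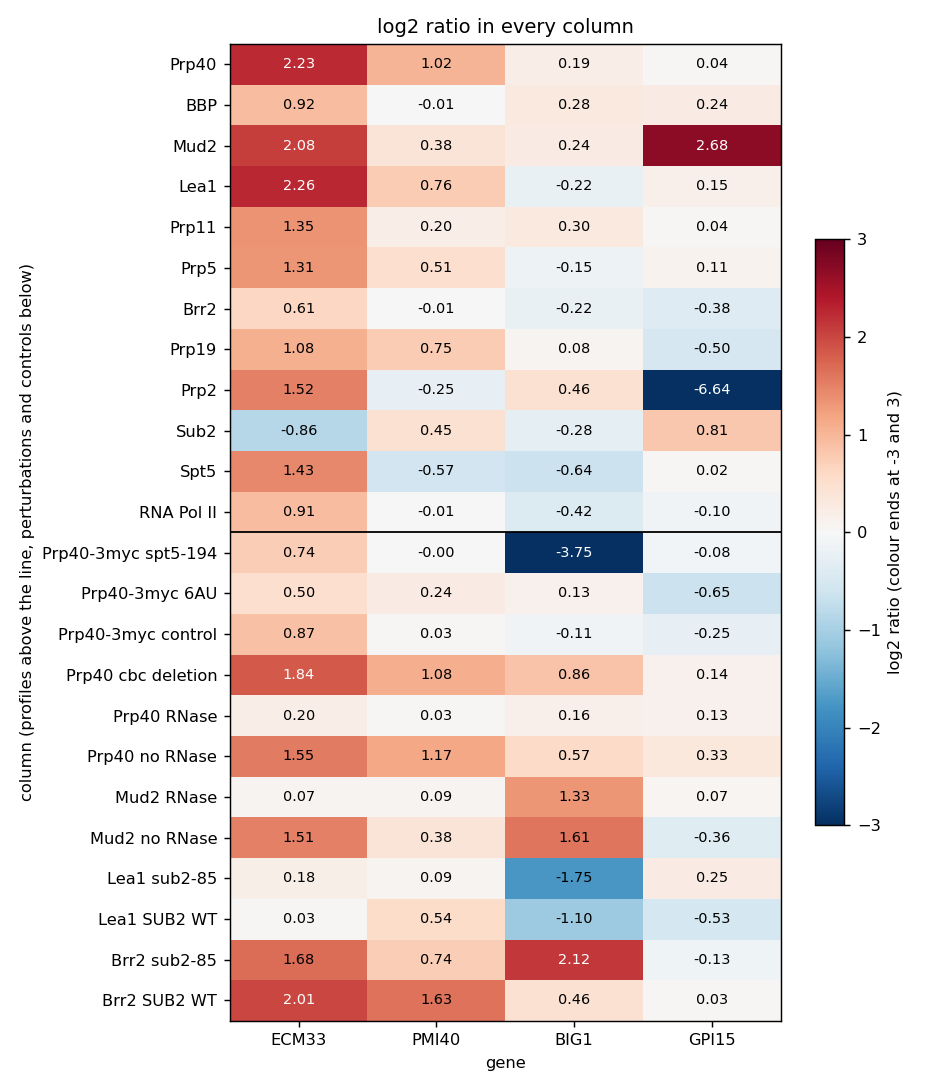
log2 ratio of each gene (columns of the grid) in each of the 24 ChIP-chip columns (down the page), with profiles of unperturbed cells above the line and mutant or treated cells, each followed by its control, below it; colour ends at -3 and 3. ECM33 is high in most columns and PMI40 in a few. BIG1 stays within -0.64 and 0.46 above the line, but below it stands at or above 1 in 3 columns and at or below -1 in 3, with -3.75 in spt5_194. GPI15 is nearer 0 in most columns, apart from values such as 2.68 with Mud2 and -6.64 with Prp2.

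PMI40 stood high with a subset of the splicing factors and not with RNA polymerase II. Its log2 ratio was 1.02 with Prp40, 0.76 with Lea1, 0.75 with Prp19, 0.51 with Prp5, 0.45 with Sub2, 0.38 with Mud2 and 0.20 with Prp11. It was -0.01 with BBP, -0.01 with Brr2, -0.25 with Prp2 and -0.57 with Spt5, against -0.01 with RNA polymerase II. PMI40 was therefore past the 95th percentile in 4 profiles, those of Prp40 (98.9), Lea1 (97.7), Prp5 (97.5) and Prp19 (97.4), while its place in the RNA polymerase II column was 54.6. Spt5, which accompanies elongating polymerase, placed PMI40 at the 12.8th percentile. Among the intron genes without ribosomal proteins, PMI40 ranked 41 of 136 with Prp40, 21 of 136 with Prp5 and 22 of 136 with Prp19.

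GPI15 was close to 0 in most profiles and far from it in only a few. Its log2 ratio was 2.68 with Mud2, 0.81 with Sub2, 0.24 with BBP, 0.15 with Lea1, 0.11 with Prp5, 0.04 with Prp40, 0.04 with Prp11 and 0.02 with Spt5. It was -0.38 with Brr2, -0.50 with Prp19 and -6.64, the end of the scale, with Prp2, against -0.10 with RNA polymerase II. The Mud2 value put GPI15 at the 99.5th percentile of intronless genes and 9 of 136 among the intron genes without ribosomal proteins. With the Mud2 column turned it became -2.68 and lay at the 0.518th percentile. The Mud2 column was also the broadest, with a robust SD of 0.64. The Prp2 value is a bound only, since 40 probes of that column stood at the end of the scale. The value in the Prp40 profile lay at the 65.0th percentile, and the RNA polymerase II value at the 46.8th.

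BIG1 stayed within -0.64 and 0.46 in all 12 profiles. It had 0.46 with Prp2, 0.30 with Prp11, 0.28 with BBP, 0.24 with Mud2, 0.19 with Prp40 and 0.08 with Prp19. It had -0.15 with Prp5, -0.22 with Lea1, -0.22 with Brr2, -0.28 with Sub2 and -0.64 with Spt5, against -0.42 with RNA polymerase II. BIG1 was thus low for the polymerase, at the 20.6th percentile. All 10 splicing factor profiles gave it a higher log2 ratio than the polymerase did, but the columns differ in width. By percentile, Brr2 placed BIG1 slightly below the polymerase, and Lea1 and Prp5 placed it only a little above. In the factor columns BIG1 was just short of the 95th percentile with Prp11. Its places were 92.3 for BBP, 85.4 for Prp2 and 82.4 for Prp40, but 25.2 for Lea1, 24.4 for Prp5 and 19.7 for Brr2. BIG1 ranked 108 of 136 with Prp40 and 37 of 136 with Prp11 among the intron genes without ribosomal proteins.

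ECM33 was the exception of the 4, with high values in nearly all profiles. It had 2.26 with Lea1, 2.23 with Prp40, 2.08 with Mud2, 1.52 with Prp2, 1.43 with Spt5, 1.35 with Prp11, 1.31 with Prp5 and 1.08 with Prp19. It had 0.92 with BBP, 0.61 with Brr2 and -0.86 with Sub2, against 0.91 with RNA polymerase II. Among the intron genes without ribosomal proteins, ECM33 ranked 1 of 136 with Prp40, 3 of 136 with Lea1, 3 of 136 with Prp5, 3 of 138 with BBP and 4 of 138 with Prp2. In the Prp40-9myc column without RNase, under the shortened fixation, it ranked only 33 of 138. ECM33 also stood high for transcription, at the 90.9th percentile with RNA polymerase II and the 97.5th with Spt5, but its places with Prp40, Prp11 and Prp5 were 99.9 each. Sub2, which also takes part in the export of messenger RNA, was the exception, with ECM33 at the 8.4th percentile. With the Mud2 column turned, the ECM33 value there was -2.08, at the 2.14th percentile.

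**Figure D2:**
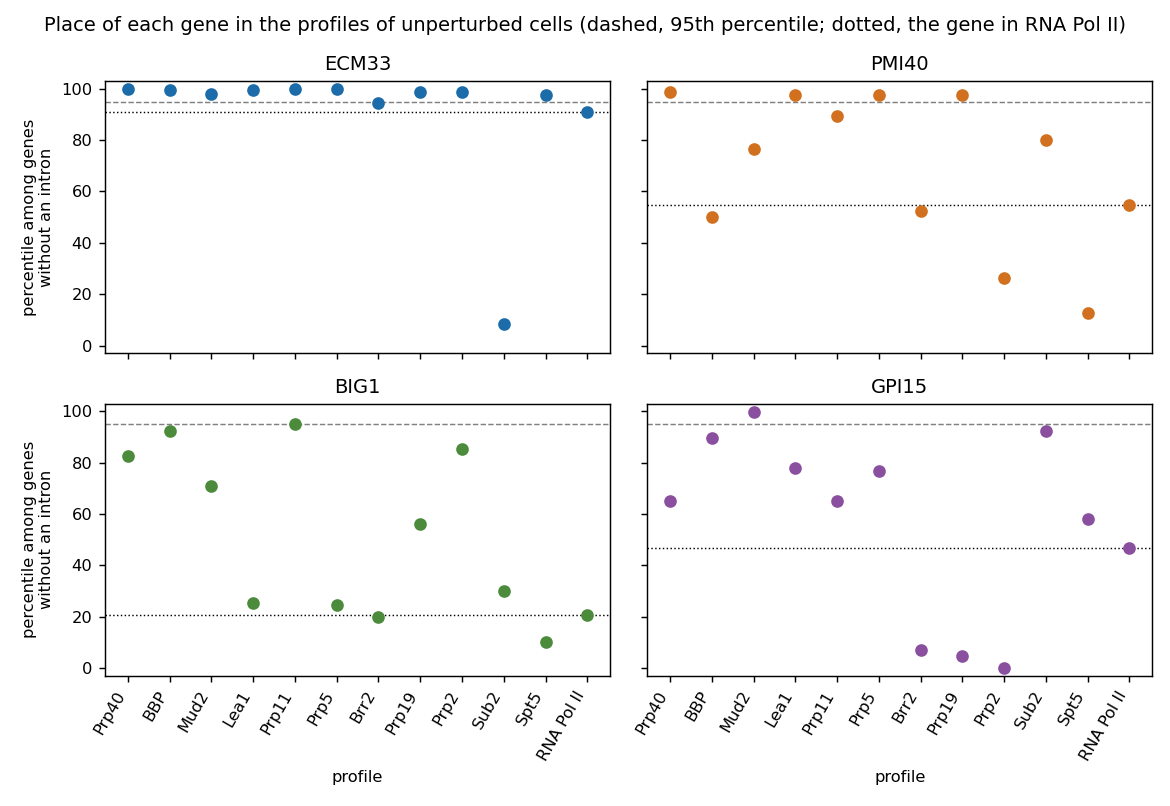
Percentile of each gene among intronless genes (vertical axis) in each of the 12 profiles (horizontal axis); the dashed line is the 95th percentile and the dotted line the gene's own place with RNA polymerase II. ECM33 lies above the dashed line in 9 profiles and PMI40 in 4, GPI15 passes it with Mud2 alone, and no profile puts BIG1 above it.

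Calls among the 4 genes were set beside the share of all genes called in the same profile. With Prp40, 2 of the 4 were called (ECM33 and PMI40), where 3.39% of all genes were. With Mud2, 2 were called (ECM33 and GPI15), but 12.0% of all genes were too, and none were with that column turned. ECM33 was the only one of the 4 called with Lea1 (3.28% of all genes), Prp11 (1.08%), Prp5 (1.24%), Prp19 (2.13%), Prp2 (3.81%) and Spt5 (6.79%). None of the 4 was called with BBP (1.04%), Brr2 (3.1%), Sub2 (4.2%) or RNA polymerase II (8.51%), although ECM33 was within 0.1 of the threshold with BBP and with the polymerase.

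The early and late stages of assembly were compared by the mean over Prp40, BBP and Mud2 minus the mean over Brr2, Prp19 and Prp2, after each column was centred on its intronless genes. ECM33 averaged 1.82 over the early factors and 1.06 over the late ones, a difference of 0.76. PMI40 averaged 0.54 early and 0.15 late, a difference of 0.39. BIG1 averaged 0.31 early and 0.10 late, a difference of 0.22. All 3 differences were positive, beside a median of 0.38 over 135 other intron genes without ribosomal proteins, 1.10 over the 89 ribosomal protein intron genes and 0.02 over 5402 intronless genes. Among intronless genes the difference lay at the 97.3rd percentile for ECM33, the 87.9th for PMI40 and only the 76.4th for BIG1. The GPI15 difference was 3.59, and it rested on the Mud2 value and on the Prp2 value at the end of the scale. It was 1.51 without the Prp2 value. Leaving out single columns also moved the smaller differences: PMI40 differed by 0.12 without Prp40, 0.18 without Prp2, 0.66 without BBP and 0.67 without Prp19, BIG1 by 0.07 without Brr2 and 0.39 without Prp2, and ECM33 by 1.21 without BBP. With the Mud2 column turned, the differences were -0.74 for ECM33, 0.02 for PMI40, -0.05 for BIG1 and 1.68 for GPI15, so the direction for ECM33 and BIG1 depends on that column.

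ECM33 was lower with RNase with both factors. With Prp40, ECM33 had 0.20 with RNase and 1.55 without it, a difference of -1.35, and PMI40 had 0.03 with RNase and 1.17 without it, a difference of -1.14. BIG1 had 0.16 with RNase and 0.57 without it (-0.41), and GPI15 had 0.13 with RNase and 0.33 without it (-0.19). All 4 were lower with RNase, and 2 of the 4 moved by 1 or more, where 4.99% of all genes did. The other intron genes without ribosomal proteins moved by a median of -0.96, with 63 of 137 lower by 1 or more, and the median over all genes was 0.10. The RNase column was the narrowest of all, with a robust SD of 0.09. On that narrow scale the 0.20 of ECM33 was still at the 98.0th percentile, whereas the 0.03 of PMI40 was at the 62.1st. Once all columns were quantile normalised, none of the 4 moved by 1 or more and the ECM33 difference was 0.06.

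With Mud2, ECM33 had 0.07 with RNase and 1.51 without it, a difference of -1.44. PMI40 had 0.09 with RNase and 0.38 without it (-0.29), and GPI15 had 0.07 with RNase and -0.36 without it (0.43). As deposited, BIG1 was high in both columns, at 1.33 with RNase and 1.61 without it (-0.28). In the RNase column BIG1 ranked 1 of 138 among the intron genes without ribosomal proteins, but with that column turned it had -1.33 and lay at the 0.367th percentile. ECM33 alone moved by 1 or more, which 4.72% of all genes did, and the median of the other intron genes without ribosomal proteins was -0.35. With the Mud2 RNase column turned, the differences were -1.58 for ECM33, -0.47 for PMI40, 0.29 for GPI15 and -2.95 for BIG1. Which gene passed 1 depended on the scaling: after quantile normalisation ECM33 differed by -0.88 and BIG1 by 1.15, and with the columns scaled to the robust SD of the control BIG1 differed by 2.12 and ECM33 by -1.38.

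In the spt5_194 mutant, 3 of the genes had Prp40-3myc values close to those of the control. ECM33 had 0.74 in spt5_194 cells and 0.87 in control cells (-0.13), PMI40 had -0.00 in spt5_194 and 0.03 in control cells (-0.03), and GPI15 had -0.08 in spt5_194 and -0.25 in control cells (0.17). BIG1 had -3.75 in spt5_194 cells and -0.11 in control cells, a difference of -3.64. BIG1 was the only one of the 4 to move by 1 or more, as 2.91% of all genes did, and its difference lay at the 1.08th percentile of intronless genes. With the spt5_194 column turned, BIG1 differed by 3.86 and ECM33 by -1.61, and the others by 0.33 for GPI15 and -0.02 for PMI40. Quantile normalisation left none of the 4 differences at 1 or more.

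Under 6AU, with the same control column as spt5_194, no gene of the 4 moved by 1, beside 1.59% of all genes. ECM33 had 0.50 with 6AU and 0.87 in control cells (-0.37), and GPI15 had -0.65 with 6AU and -0.25 in control cells (-0.40). PMI40 had 0.24 with 6AU and 0.03 in control cells (0.22), and BIG1 had 0.13 with 6AU and -0.11 in control cells (0.24). The 2 lower and the 2 higher genes thus moved by similar small amounts. With the 6AU column turned, the differences were -1.37 for ECM33, 0.90 for GPI15, -0.27 for PMI40 and -0.01 for BIG1.

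Removal of the cap-binding complex left the order of the genes with Prp40 in place. ECM33 had 1.84 in the deletion strain and 2.23 in the Prp40-9myc profile (-0.39), PMI40 had 1.08 in the deletion strain and 1.02 in the profile (0.06), and GPI15 had 0.14 in the deletion strain and 0.04 in the profile (0.10). BIG1 had 0.86 in the deletion strain and 0.19 in the profile, a difference of 0.67 that lay at the 99.7th percentile of intronless genes. With the Prp40 column without RNase as the control instead, BIG1 differed by 0.29 and ECM33 by 0.29. None of the 4 moved by 1 or more, and 0.852% of all genes did. The median of the other intron genes without ribosomal proteins was -0.05.

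In the sub2-85 experiment PMI40 was lower in the mutant with both factors as deposited. With Lea1 it had 0.09 in sub2-85 and 0.54 in SUB2 wild type (-0.45, or 0.62 with the wild-type column turned), and with Brr2 it had 0.74 in sub2-85 and 1.63 in SUB2 wild type (-0.89). ECM33 had 0.18 in sub2-85 and 0.03 in wild type with Lea1 (0.15), and 1.68 in sub2-85 and 2.01 in wild type with Brr2 (-0.32). For PMI40 and for ECM33 with Brr2 the sign was that of the median Brr2 difference over the other intron genes without ribosomal proteins, which was -0.39, while the median Lea1 difference was 0.08.

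GPI15 had 0.25 in sub2-85 and -0.53 in SUB2 wild type with Lea1 (0.77), and -0.13 in sub2-85 and 0.03 in wild type with Brr2 (-0.15). BIG1 had -1.75 in sub2-85 and -1.10 in wild type with Lea1 (-0.65), and 2.12 in sub2-85 and 0.46 in wild type with Brr2 (1.66). BIG1 was the lowest of 138 intron genes without ribosomal proteins with Lea1 in sub2-85 and ranked 4 of 138 with Brr2 in sub2-85. With Lea1 none of the 4 moved by 1 or more, where 1.41% of all genes did, and with Brr2 only BIG1 did, where 4.64% did. With the Brr2 columns scaled to the robust SD of the control, BIG1 differed by 0.87 and PMI40 by -1.19, so the gene past 1 was PMI40. After quantile normalisation of the Lea1 columns, BIG1 differed by -1.17 and GPI15 by 1.47. With the Lea1 SUB2 wild-type column turned, the Lea1 differences were 0.20 for ECM33, -0.28 for GPI15 and -2.85 for BIG1.

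**Figure D3:**
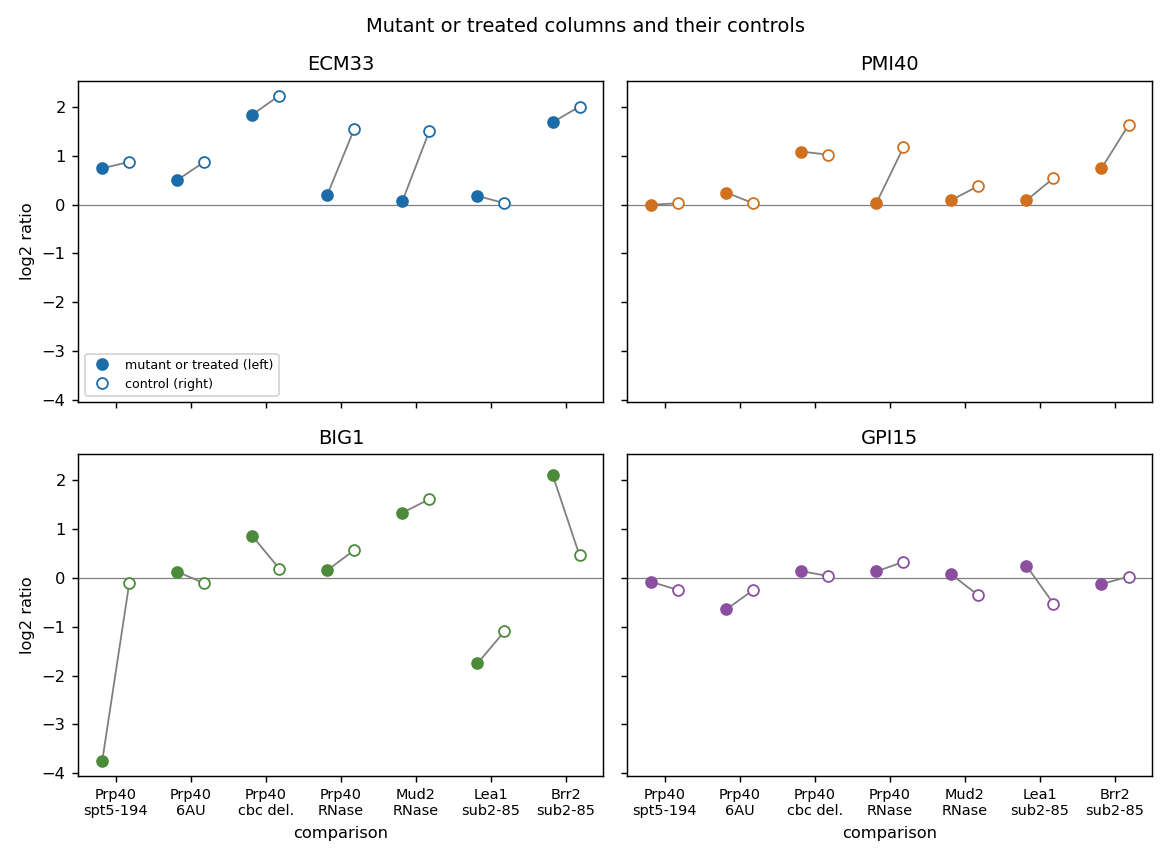
log2 ratio (vertical axis) of each gene in the 7 mutant or treated columns (filled) and in their controls (open, to the right), joined by a line, by comparison (horizontal axis). ECM33 drops with RNase with both factors (-1.35 with Prp40 and -1.44 with Mud2), PMI40 with Prp40 (-1.14), and BIG1 is -3.64 apart from its control in spt5_194 and 1.66 apart from it with Brr2 in sub2-85.

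Columns of a single factor outside the mutant or treated columns also differed from each other. These differences came with other tags, media, temperatures or fixation times, and which of these mattered was not tested. The RNase columns shared the fixation of their controls, and the helicase mutant columns shared the temperature and medium of theirs. The differences between unmatched columns therefore do not measure the variation to expect in those matched comparisons. For Prp40, ECM33 had 0.87 in the Prp40-3myc control and 2.23 in the Prp40-9myc profile (-1.36), and PMI40 had 0.03 in the control and 1.02 in the profile (-0.99). For Brr2, ECM33 had 2.01 in SUB2 wild type at 37C and 0.61 in the profile (1.40), and PMI40 had 1.63 at 37C and -0.01 in the profile (1.63). In size the Prp40-3myc shift was close to the Prp40 RNase drop for ECM33 (-1.36 and -1.35) and smaller for PMI40 (-0.99 and -1.14). The Brr2 shifts were larger than these drops (1.40 for ECM33 and 1.63 for PMI40). The other intron genes without ribosomal proteins moved the same way, by a median of -0.68 for Prp40-3myc and 0.67 for Brr2. Between the Prp40-9myc columns they went apart: ECM33 had 1.55 in the column without RNase and 2.23 in the profile (-0.68). The other intron genes without ribosomal proteins moved there by a median of 0.28.

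For Lea1, ECM33 had 0.03 in SUB2 wild type at 37C and 2.26 in the profile (-2.24, or -2.29 with the wild-type column turned). For Mud2, GPI15 had -0.36 in the column without RNase and 2.68 in the profile (-3.05, or 2.32 with the profile turned). BIG1 had 1.61 in the Mud2 column without RNase and 0.24 in the profile (1.37, or 1.85 with the profile turned). The GPI15 value with Mud2 and the BIG1 values with Mud2 were therefore each seen under 1 fixation and not under the other.

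The values were next set beside those of the measured genes on the chromosome, 2 on each side. ECM33 exceeded all 4 neighbours in 18 of 24 columns, PMI40 in 13, BIG1 in 9 and GPI15 in 4. With the unsettled columns turned, these counts were 15, 11, 10 and 5. How often any other gene exceeds its own neighbours was not computed, so the counts have no baseline and are descriptive only. With Prp40, ECM33 had 2.23 and its neighbours ECM8, SLM4, RPG1 and SEC18 had between -0.24 and 0.25, so its neighbours did not share the high value. PMI40 had 1.02 and its neighbours MNN1, NOP16, FMP52 and YND1 had between -0.04 and 0.29. With Brr2 at 37C, the neighbours of PMI40 lay between -0.01 and 0.33 where PMI40 had 1.63. The low Sub2 value of ECM33 (-0.86) did not stand apart, as its neighbours lay between -1.30 and -0.23 there.

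BIG1 in the spt5_194 column had -3.75 where its neighbours TRA1, GEP4, KIC1 and SBE22 had between -0.25 and -0.02. With that column turned, BIG1 had 3.75 and its neighbours between 0.02 and 0.25. With Brr2 in sub2-85, BIG1 had 2.12 but TRA1 was at the end of the scale at 6.64, as it also was with Lea1 and with Prp2. GPI15 with Mud2 had 2.68 where YNL040W, BDP1, IDH1 and NCE103 had between -0.27 and 0.29, and with the column turned GPI15 had -2.68 and they had between -0.29 and 0.27. With Prp40, on the other hand, GPI15 had 0.04 and the highest of these neighbours 0.86. ECM33 was not above SLM4 with RNA polymerase II, where SLM4 stood at the end of the scale.

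**Figure D4:**
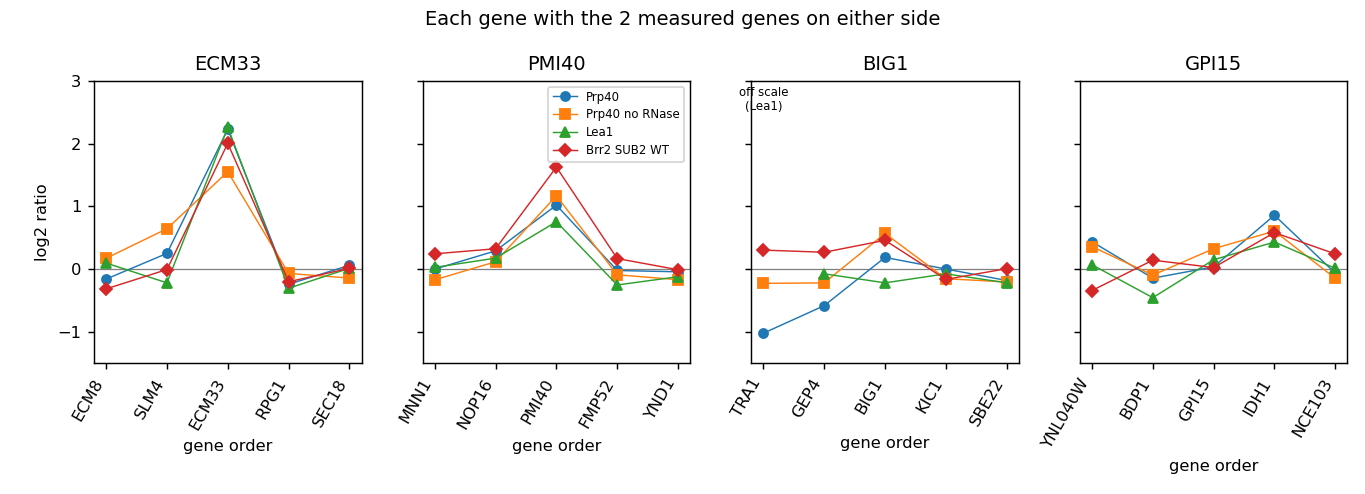
log2 ratio (vertical axis) of each gene and of the 2 measured genes on either side, in chromosome order (horizontal axis), in 4 columns; TRA1 with Lea1 lies above the axis. ECM33 and PMI40 stand above their neighbours in all 4 columns shown, while BIG1 does not with Lea1 and GPI15 does in none of them.

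Genes with similar patterns were found by the Pearson correlation of robustly scaled values over the 24 columns, among 5629 other genes. The columns share factors, strains and controls, so the correlations describe likeness of profile only. ECM33 was most like RPS9B (0.92), RPS6B (0.92) and RPL16A (0.91), which encode proteins of the small and large ribosomal subunits and contain introns. Of its 20 most similar genes, 15 were ribosomal protein genes with a listed intron and 3 were other intron genes, where these classes make up 1.58% and 2.45% of all genes. PMI40 was most like TUB3 (0.92), an alpha-tubulin gene, RFA2 (0.91), for a subunit of the single-stranded DNA binding protein RPA, and PRE3 (0.87), for a proteasome subunit, all with introns. Of its 20 most similar genes, 5 were ribosomal protein genes with an intron and 13 were other intron genes. RFA2 had 0.98 with Prp40, 0.81 with Lea1 and 1.07 with Brr2 at 37C, against -0.38 with RNA polymerase II. TUB3 had 0.29 with RNA polymerase II, at the 73.6th percentile, and PRE3 had 0.32, at the 75.4th. These genes were chosen by their likeness over the same columns. Ranked by Spearman's rho on the values as deposited, PUS2, with no listed intron, came first for PMI40 (0.86), then RFA2 (0.80) and YPR063C (0.74). TUB3 and PRE3 were not among the first 3 by that measure.

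The genes most like BIG1 and GPI15 were mostly intronless, as most genes are, with 19 of the 20 most similar genes in each case. BIG1 was most like HNM1 (0.96), for a choline transporter, TDA10 (0.89) and SVF1 (0.88). These genes had -6.55, -4.43 and -4.67 in the spt5_194 column, where BIG1 had -3.75, and 2.21, 1.75 and 2.21 in the Mud2 column without RNase, where BIG1 had 1.61. The values of 2.21 for HNM1 and SVF1 equal the end of the scale divided by 3. Turning the spt5_194 column turns the sign of the spt5_194 values, to 6.55, 4.43 and 4.67 beside 3.75 for BIG1. The spt5_194 column has a robust SD of 0.14, so such extremes weigh heavily in the Pearson correlation, which was not recomputed without them for BIG1. By Spearman's rho on the values as deposited, NYV1, which has a listed intron, was the most like BIG1 (0.70). SVF1 came next (0.66), and HNM1 and TDA10 were not among the first 3. GPI15 was most like YBL028C (0.88), ASI1 (0.76) and YKE2 (0.72), which had -4.63, -1.16 and -5.27 in the Prp2 column in which GPI15 reached the end of the scale. Without that column PHO80 (0.88), DFP3 (0.86) and LCD1 (0.79) came first. Spearman's rho over all 24 columns put DFP3 (0.73), ASI1 (0.72) and OAZ1 (0.70) first for GPI15. With the unsettled columns turned, the first 3 genes by Pearson correlation were the same for PMI40, BIG1 and GPI15, and RPS8B replaced RPL16A for ECM33. Between the 4 genes, the correlation was 0.65 for ECM33 with PMI40 and 0.25 or lower for the other pairs.

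Genes that work beside the 4 were compared through 5 lists, counted without the 4 genes. Of 8 measured genes of mannose supply, 2 were called with Prp40 (3.39% of all genes) and 2 with RNA polymerase II (8.51% of all genes), and the medians were 0.37 and 0.82. PGI1, the glucose phosphate isomerase upstream of Pmi40, had 1.04 with Prp40 and PSA1, the enzyme that makes GDP-mannose, had 2.14 with RNA polymerase II. PMI40 was close to PGI1 with Prp40 but was below all 8 genes with the polymerase. Of 23 genes that transfer mannose, none was called with Prp40 or the polymerase, and the medians were -0.05 and -0.03, beside -0.05 over all genes in both columns. VAN1, a subunit of a Golgi mannosyltransferase, was the highest of them with Prp40 at 0.33, and OCH1, which starts the outer mannose chain, was the highest with the polymerase at 0.42.

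Of 27 genes of GPI anchor synthesis and attachment, none was called with Prp40 and 1 with RNA polymerase II, CWH43, which stood at the end of the scale there. SPT14, the catalytic partner of Gpi15, is the only other gene of the lists with a listed intron. It had 0.46 with Prp40, the highest of the 27, against -0.37 with RNA polymerase II, and 0.05 with RNase and 0.67 without it. GPI15 had 0.04 with Prp40, above 20 of the 27. Of 11 genes of glucan assembly, none was called with Prp40 or the polymerase, and KNH1 had the highest value with Prp40 at 0.58 and ROT1 with the polymerase at 0.55. BIG1 was above 8 of these 11 with Prp40 and above 1 of them with the polymerase.

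The wall proteins were the list with the most genes called with the polymerase. Of 21 measured, 3 were called with Prp40 and 7 with RNA polymerase II, beside 3.39% and 8.51% of all genes, with medians of 0.31 and 0.48. CRH1, a wall transglycosylase, was the highest with Prp40 at 1.20, and CCW12, a mannoprotein of the wall, was the highest with the polymerase at 2.94. ECM33 with Prp40 exceeded all 21, but with the polymerase it exceeded only 14. With RNase in the Prp40 columns, 4 of the 21 fell by 1 or more and none rose, led by CCW12 (-1.52), as did 2 of the 8 genes of mannose supply, led by PSA1 (-1.40), and 1 of the 27 GPI anchor genes, where 4.99% of all genes moved by 1 or more in either direction. None of the genes of glucan assembly or mannose transfer did. CCW12 and PSA1 carry no listed intron and had 2.94 and 2.14 with RNA polymerase II. GWT1, the GPI anchor gene that fell (-1.13), carries none either and had 0.40 with the polymerase. Drops about the size of those of ECM33 and PMI40 thus also occurred at genes with no listed intron. What the drops depend on was not tested.

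**Figure D5:**
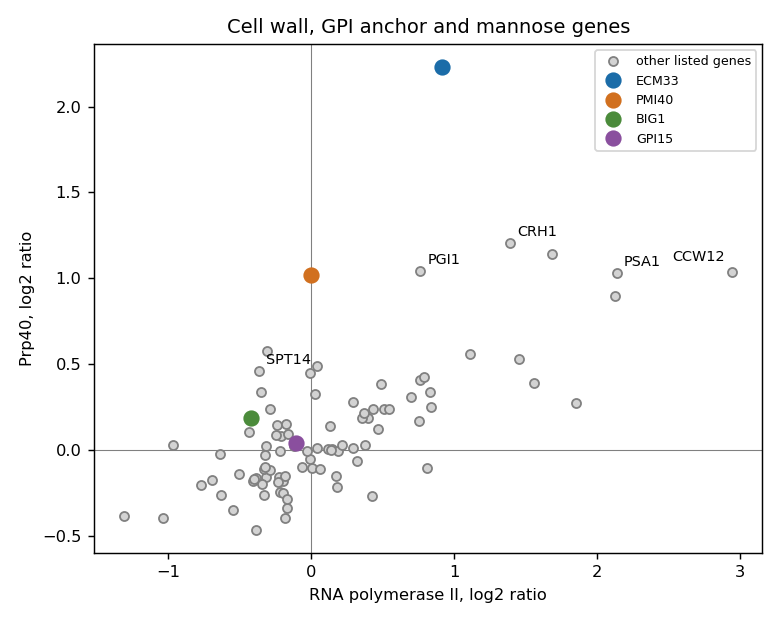
Prp40 log2 ratio (vertical axis) against RNA polymerase II log2 ratio (horizontal axis) for the 4 genes and the other genes of the 5 lists; CWH43, at the end of the scale for the polymerase, lies outside the axes. ECM33 (2.23 with Prp40 and 0.91 with the polymerase) and PMI40 (1.02 and -0.01) lie above the listed genes of similar polymerase level, and BIG1 and GPI15 lie among them.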

How the data were processed

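The deposited values are log2 ratios of 2 channels, 1 per probe of a spotted yeast open reading frame array and column; per the labels and the series design text, both DNA fractions went through linker-mediated PCR, dyes were reversed in at least 1 replicate, arrays were scanned on a GenePix 4000B and the authors combined replicates in Rosetta Resolver. The sources used here give neither the direction of the ratio nor any normalisation within arrays. Single replicates were not analysed here. Arrays give no read depth, and their number limits the precision.

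Of 6284 probes, 5674 matched a nuclear protein-coding gene of the RefSeq table (assembly R64, used for names and neighbours) and 610 were not used. Values were used as deposited. Intron genes came from a list written from memory, since the planned rule on coding lengths could not be applied, so some genes called intronless may have an intron. The members and all lists were chosen with earlier results of these data known. Named genes are the 4 members, the 3 most correlated genes of each, list genes with an intron, and the highest gene of each list with Prp40 and with RNA polymerase II. Neighbours, and the list genes given for RNase, were named beside their results. Percentiles, robust SDs and quantile normalisation were tested on simulated data. Python 3.11.15, pandas 2.3.3 and numpy 2.4.6 were used, with matplotlib 3.10.9 for plots. Alternatives were quantile normalisation, scaling, other controls, a lower threshold, other likeness measures and turned signs.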

Additional observations from a re-analysis of the deposited data

Results flagged for a closer look

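BIG1 moved in opposite directions with the 2 factors in sub2-85. Its log2 ratio was lower by -0.65 in sub2-85 than in SUB2 wild type with Lea1 (-1.75 and -1.10) and higher by 1.66 with Brr2 (2.12 and 0.46). Each value is a single column with replicates already combined, so the difference between the factors was not tested. With the Lea1 wild-type column turned, the Lea1 difference was -2.85. The 3 genes most like BIG1 had the same directions, but they were chosen over the same columns, so this gives no separate support. SVF1 hardly moved with Lea1. With Lea1, HNM1 had -2.21 in sub2-85 and 0.00 in wild type, TDA10 -0.38 and -0.13, and SVF1 -4.24 and -4.19. With Brr2, HNM1 had 2.21 in sub2-85 and -0.45 in wild type, TDA10 1.53 and -0.18, and SVF1 1.41 and 0.53. Both HNM1 values in sub2-85 equal in size the end of the scale divided by 3 (2.2146).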

How the results depend on the processing

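Of 142 recomputed values of single genes or medians, 67 moved by less than the robust SD of that quantity over intronless genes, 71 moved by more, and 4 were set apart as reversed. Those 4 were BIG1 in spt5_194 with the column turned, ECM33 with Prp40 RNase after quantile normalisation, and the early minus late differences of ECM33 and BIG1 with Mud2 turned. Signs also changed among the 67 and the 71. In all, 29 of the 142 changed sign, and 27 of these had a reported value under 1 in size. Among them were GPI15 with 6AU turned (-0.40 to 0.90) and PMI40 with Lea1 SUB2 wild type turned (-0.45 to 0.62). BIG1 with Mud2 RNase also changed sign after quantile normalisation (-0.28 to 1.15). With quantile normalised columns, the number of the 4 genes past 1 was 0 for spt5_194, 0 for Prp40 RNase, 2 for Lea1 sub2-85, 1 for the Prp40, BBP and Mud2 profiles and 0 for Spt5, the ECM33 difference with Prp40 RNase was 0.0645 and the median early minus late difference, 0.58 as reported, was 0.27. With columns scaled to the control's robust SD, 2 passed for Mud2 RNase and 1 for Lea1 sub2-85. At a threshold of 0.5, 1 gene passed for the cap-binding complex deletion and for the BBP, Brr2, Sub2 and RNA polymerase II profiles, and 2 for Lea1 sub2-85, Brr2 sub2-85 and the Lea1, Prp5 and Prp19 profiles. With signs turned, 2 passed for spt5_194, 1 for 6AU, 2 for Mud2 RNase, 1 for Lea1 sub2-85 and 0 for the Mud2 profile, the BIG1 difference in spt5_194 was 3.86, and the early minus late difference was -0.74 for ECM33, -0.0519 for BIG1 and -0.0136 for the median. That median was 0.94 without BBP and 2.08 in robust SD units. With profiles as controls, an alternative chosen after seeing the data, 3 passed for spt5_194, 1 for 6AU, 1 for Prp40 RNase, 3 for Mud2 RNase, 2 for Lea1 sub2-85 and 2 for Brr2 sub2-85. The cause was not tested. The median of other intron genes with Prp40, 0.65, was 0.59 when only listed genes whose span is not a multiple of 3 were kept, also chosen after seeing the data. The planned earlier intron list was not run. No paired analysis was possible because each group is 1 column, and no replicate could be left out.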

Other observations

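In the 17 columns that pool 3 replicates, 118 values over all probes equalled 2.2146 in size, which is the end of the scale divided by 3, within 0.00015. They occurred in 12 of these columns, up to 26 in 1 column, and made up 118 of the 214 values within 0.05 of that size. HNM1, the gene most like BIG1, had this size in 4 columns, and SVF1 in 1. None of the values of ECM33, BIG1, GPI15 or PMI40 in these columns equalled it.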
